A study of Mus musculus with 2 samples.

Results

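The genes described here are 47 nuclear genes for subunits of the mitochondrial respiratory chain, grouped by the complex their protein belongs to: 23 of complex I, 4 of complex II, 6 of complex III, the mobile carrier cytochrome c, 10 of complex IV and 3 of complex V. They were taken from a fixed list of names, and a gene's values are those of the array probes whose transcript accession is a RefSeq transcript of that gene. All 47 had such a probe, of 20657 genes with one, and all 47 were well above background on both arrays, as were 13860 genes in all. The RNA came from 2 stable lines of ATDC5, a chondrogenic mouse line. The control line carried a doxycycline-inducible GFP gene, and the other line a doxycycline-inducible A-CEBP gene, whose product is a dominant-negative partner of the C/EBP transcription factors. Both lines received 2 µg/mL doxycycline for 2 days. Differentiation lasted 3 weeks with ITS, a supplement of insulin, transferrin and selenite. Each group held 1 sample on 1 single-colour array. The spread between cultures is therefore unknown, and no p-values are given. The labels do not say whether either line is 1 clone. The A-CEBP protein and other features by which the lines differ cannot be told apart, nor can fewer cells of a type and less RNA per cell.

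The respiratory chain sits in the inner mitochondrial membrane. Complexes I and II pass electrons from NADH and succinate to ubiquinone, complex III passes them on to cytochrome c, and complex IV to oxygen; complexes I, III and IV pump protons as they do so, and complex V, the ATP synthase, makes ATP from the returning protons. Complexes I, III, IV and V also hold a few subunits encoded in mitochondrial DNA, which are not analysed here, whereas complex II is wholly nuclear-encoded. Cartilage cells are known for relying largely on glycolysis, since the tissue has few vessels.

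The arrays were of similar quality. The share of the 59305 non-control spots that stood well above background was 54.6% on the GFP array and 58.0% on the A-CEBP array, and the 75th percentile of the signal was 872 and 906 intensity units. All 8 chondrocyte markers looked for, Col2a1 and Acan among them, were well above background on both arrays. The leukocyte markers Ptprc and Adgre1 were not well above background on either array, while 5 others were well above background on both: Cd14 and Lyz2 at log2 differences of -0.84 and -0.83, Csf1r at -0.14, Cd3e at 0.20 and Itgam at 0.23. Of 7 adipocyte markers 2 were measured on both arrays, Pparg at a log2 difference of 0.31 and Fabp4 at -1.92, and of 4 endothelial markers 2. A level is given below as the processed signal in intensity units before scaling, and a difference as A-CEBP minus GFP on the log2 scale after each array was set to its own 75th percentile. Levels of different genes come from different probes, so brightness does not order genes by expression, and it is used below only to pick genes of like signal and in summed marker signals.

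The subunit genes differed little between the samples. Their median difference was 0.08, with an SD of 0.11 over the 47 genes and a range from -0.10 for Cycs to 0.52 for Ndufa1. None was 2-fold higher or lower, where 1.26% of all genes measured were 2-fold higher and 1.7% were 2-fold lower. A smaller size rule was set at a log2 difference of 0.32. By it 1 gene was higher, Ndufa1, and none was lower, against 13.3% and 8.76% of all genes. The members' probes were among the brighter ones of the array, as 75.4% of all genes measured gave a dimmer signal than the dimmest member. Among the 3351 genes within the members' range of mean signal, 8.98% were higher by this rule and 3.55% lower, the median difference was 0.06 and the SD was 0.28. The members' median therefore lay 0.02 above that of genes of like signal. A difference above 0 was found for 43 of the 47 members, for 67% of genes of like signal and for 59.1% of all genes. These counts depended on the scaling. Members above 0 ranged from 25 with quantile normalization to 47 with spike-in centring, and members higher by 0.32 or more numbered 17 with spike-in centring and 3 without scaling.

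**Figure D1:**
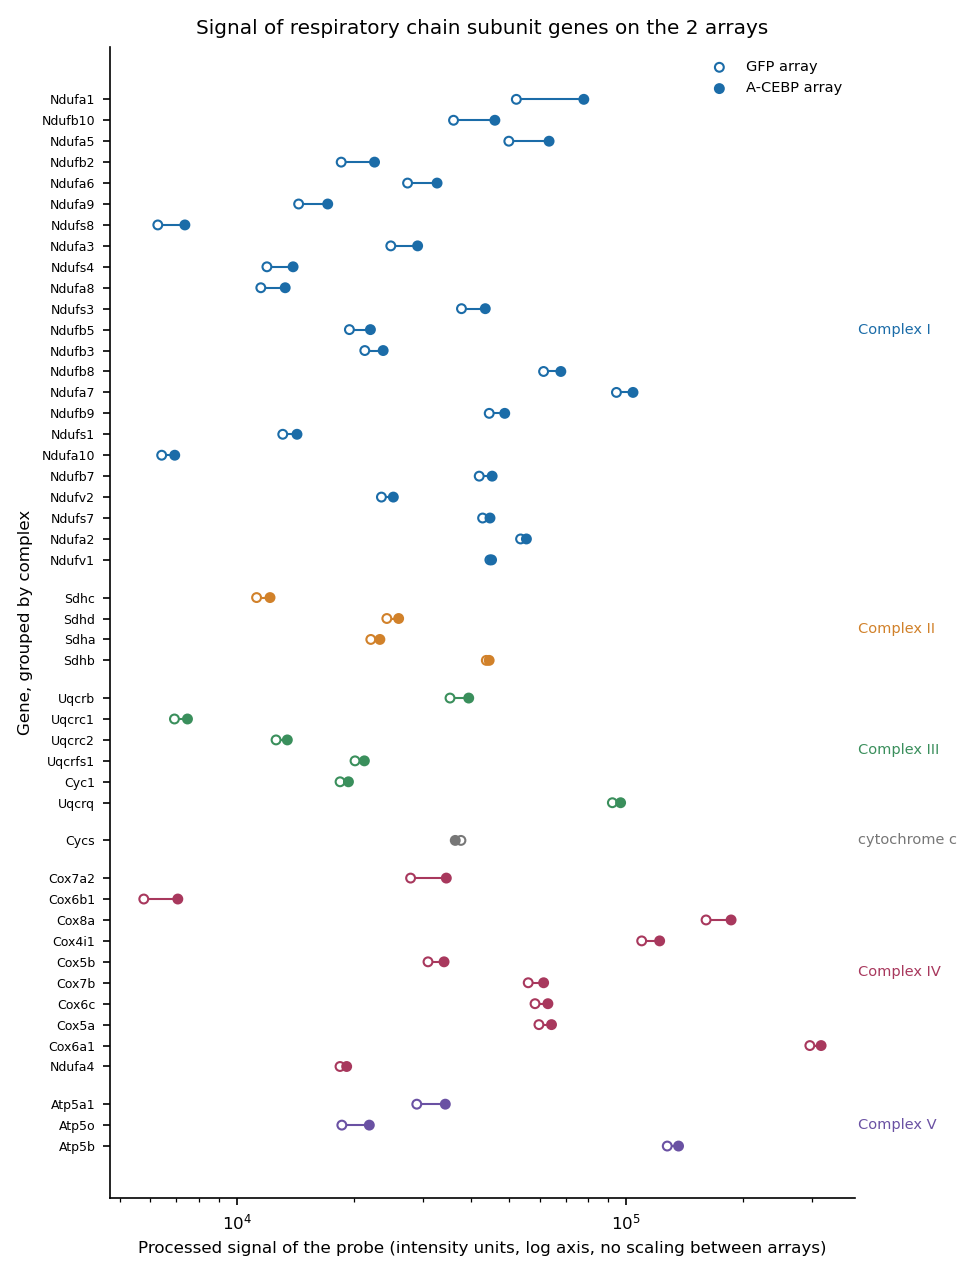
Processed signal of each of the 47 genes on the GFP array (open circles) and the A-CEBP array (filled circles), in intensity units on a log axis and without scaling between arrays, grouped by complex and ordered within it by the difference. The pairs lie close together, with the widest gap at Ndufa1, from 52255 to 77894 units, and Cycs alone lies lower on the A-CEBP array.

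Measurement error sets how far these small differences can be read. The error model of the scanner software gave 0.20 for the difference of every member, and 6 of 47 differences were larger than this single error. The share of other genes past it is not given here. Measured from the median of genes of like signal instead of 0, 44 of 47 members lay within it. Probes spotted several times gave a smaller figure: in the members' range of signal, the SD of the difference over replicate spots was 0.05 (61 probes). By more than 2 of these SDs, or 0.11, 17 of the 47 members differed, all upward. The same cut was passed, in either direction, by 1802 of the 3351 genes of like signal and by 8589 of all 13860 genes. The cut suits all genes less well, as the SD over all 287 probes with replicate spots was 0.12. Shares for the upward direction alone are not given here. Passing the cut in either direction is therefore not particular to the members. Uqcrc2 was the only member with replicate spots. Its 9 spots ranged from 12111 to 13012 units on the GFP array and from 13166 to 14152 on the A-CEBP array, and gave a difference of 0.04 ± 0.03 (SD, n = 9 spots of 1 array pair), above 0 in all 9. Of the 8 members with several probes well above background, the gap between the highest and lowest probe had a median of 0.08 and reached 0.19 for Ndufb5, and in 4 members the probes differed in sign. These errors describe the arrays only, not the cultures.

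The promoters of 4 genes are shown, since these genes mark the ends of the range among members and the pair of isoforms that differed most within complex IV apart from Ndufa4 and its relative. Ndufa1 had the highest difference and Cycs the lowest; Cox8a is a member and Cox8b its muscle-type isoform. Each sequence runs from 250 bases before to 50 bases after the start of the gene, on its own strand, from RefSeq (build GRCm38.p6), at chrX:37191189-37191488 (minus strand), chr6:50566520-50566819 (minus), chr19:7217567-7217866 (minus) and chr7:140900397-140900696 (minus). Capitals mark every match, on either strand, to the loose C/EBP pattern TTNCNNAA or to CGCATGCG, the core of the site of NRF1, a transcription factor known for driving respiratory chain genes.
Ndufa1: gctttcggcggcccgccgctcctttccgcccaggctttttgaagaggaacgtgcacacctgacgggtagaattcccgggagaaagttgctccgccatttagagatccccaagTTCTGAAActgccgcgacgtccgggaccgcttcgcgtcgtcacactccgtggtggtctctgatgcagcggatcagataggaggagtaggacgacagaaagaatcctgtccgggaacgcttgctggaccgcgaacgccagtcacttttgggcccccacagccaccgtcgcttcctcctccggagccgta
Cycs: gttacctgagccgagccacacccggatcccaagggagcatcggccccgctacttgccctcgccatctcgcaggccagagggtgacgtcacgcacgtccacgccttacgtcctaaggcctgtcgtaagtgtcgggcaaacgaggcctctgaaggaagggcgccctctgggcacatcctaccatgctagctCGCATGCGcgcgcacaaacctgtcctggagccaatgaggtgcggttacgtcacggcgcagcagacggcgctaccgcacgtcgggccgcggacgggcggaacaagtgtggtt
Cox8a: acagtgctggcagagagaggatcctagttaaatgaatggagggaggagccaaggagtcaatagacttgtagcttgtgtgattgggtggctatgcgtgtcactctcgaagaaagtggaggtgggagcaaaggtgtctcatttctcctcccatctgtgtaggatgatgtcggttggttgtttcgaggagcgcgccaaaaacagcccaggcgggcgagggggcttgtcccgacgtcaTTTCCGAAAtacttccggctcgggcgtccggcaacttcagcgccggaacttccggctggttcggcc
Cox8b: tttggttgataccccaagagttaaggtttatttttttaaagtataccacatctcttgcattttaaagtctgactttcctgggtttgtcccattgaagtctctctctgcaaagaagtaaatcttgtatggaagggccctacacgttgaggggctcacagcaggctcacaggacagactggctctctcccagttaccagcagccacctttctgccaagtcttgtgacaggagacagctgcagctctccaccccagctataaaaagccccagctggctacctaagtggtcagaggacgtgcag

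The Cycs promoter held 1 match to the NRF1 core, the Ndufa1 promoter 1 to the C/EBP pattern, the Cox8a promoter 2 overlapping ones, and the Cox8b promoter none to either. Promoter sequences were matched for 36 of the 47 members, with 38 promoters between them. The NRF1 core was in 10.5% of these promoters (Cox6a1, Cycs, Ndufa8 and Uqcrc1) and in 1.87% of all 32851 promoters of the same length. The shorter NRF1 element TGCGCA was in 31.6% against 7.76%, the ETS-type site CCGGAAG, bound by GABP, in 21.1% against 8.86%, and the YY1 site AAGATGGC in 13.2% against 2.75%. The cyclic AMP response element core TGACG was in 47.4% of members' promoters against 20.8% of all, and the GC box GGGCGG in 44.7% against 35.7%. The C/EBP pattern was in 44.7% against 40.7%, and the hypoxia core ACGTG in 23.7% against 19.6%. All were searched on both strands, and matches may overlap, as TGACG with ACGTG, or TGCGCA with TTNCNNAA. The members with a C/EBP match had a median difference of 0.09 (15 genes), and those with a promoter but no match also 0.09 (21 genes). For the NRF1 core the medians were 0.05 (4 genes) and 0.10 (32 genes), and for the YY1 site 0.17 (5 genes) and 0.08 (31 genes). All 5 genes with the YY1 site belong to complex I, whose median was 0.13, so the site and the complex cannot be told apart. With and without a match, the medians were 0.09 and 0.09 for TGCGCA and 0.10 and 0.09 for CCGGAAG. They were 0.11 and 0.09 for TGACG, 0.08 and 0.09 for GGGCGG, and 0.07 and 0.10 for ACGTG. These matches describe the letters of the sequences and do not show binding.

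Complex I, the NADH dehydrogenase, held the genes with the highest differences, and its accessory subunits lay above its catalytic core. The median over its 23 genes was 0.13, and 17 of them lay above the median of genes of like signal. The complex I median was positive under each of 12 other ways of processing, from 0.06 to 0.32. Of these 12, 5 only add a constant to each array and cannot change an order. In the other 7 the complex I median lay above those of complexes II, III and IV. Of these 7, 5 changed its gaps to complexes II and IV, and 6 its gap to complex III. Among the 6 core subunits, which carry the flavin and the iron-sulphur clusters, the median was 0.06. Ndufs8 read 6269 units with GFP and 7357 with A-CEBP, a difference of 0.18, and Ndufs3 read 37777 and 43487, a difference of 0.15. These were the only core genes beyond 2 replicate-spot SDs. Ndufs1, the largest subunit of the electron input arm, differed by 0.07, with 13125 and 14279 units. Ndufv2 differed by 0.05 and Ndufs7 by 0.01. Ndufv1, which binds NADH and the flavin, read 44689 and 45135 units, a difference of -0.04 after scaling.

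The 17 accessory subunits, which surround the core and are needed for its assembly and stability, had a median of 0.15. It lay 0.10 above that of the core. Quantile normalization, cyclic loess and normexp, the settings that changed this gap, gave 0.0962 to 0.103. Ndufa1, a small membrane subunit encoded on the X chromosome, read 52255 units with GFP and 77894 with A-CEBP. Its difference of 0.52, or 1.44-fold, exceeded that of 96.8% of genes of like signal and its scanner error of 0.20. It was also the highest member in the 7 settings that do more than add a constant. Among these, only quantile normalization, cyclic loess and normexp changed its own value. Over all 12 settings its value ran from 0.43 to 0.72, and it rests on 1 probe with 1 spot. Ndufb10 came next, at 36043 and 46031 units and a difference of 0.30. Ndufa5 read 49987 and 63427 units, a difference of 0.29, and its other probe gave 0.17. Just below them came Ndufb2, at 0.23, with 18544 and 22589 units. Without Ndufa1, the median of the other 46 members was also 0.08.

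The remaining accessory subunits lay between -0.0043 and 0.20. Ndufa6 differed by 0.20, Ndufa9 by 0.19, Ndufa3 and Ndufs4 by 0.17 and Ndufa8 by 0.15. Ndufb5 differed by 0.13 with its brighter probe, 19469 and 22044 units, and by -0.07 with the dimmer one, 1522 and 1510 units, so its direction depended on the probe. Ndufb3, Ndufb8, Ndufa7 and Ndufb9 lay between 0.08 and 0.10, and Ndufa10 and Ndufb7 were both at 0.06. Ndufa2 was the lowest accessory gene, at 53585 and 55466 units, a difference of -0.0043. By name, the 9 Ndufa genes of complex I had a median of 0.17 and the 7 Ndufb genes, most of them subunits of the membrane arm, a median of 0.10.

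**Figure D2:**
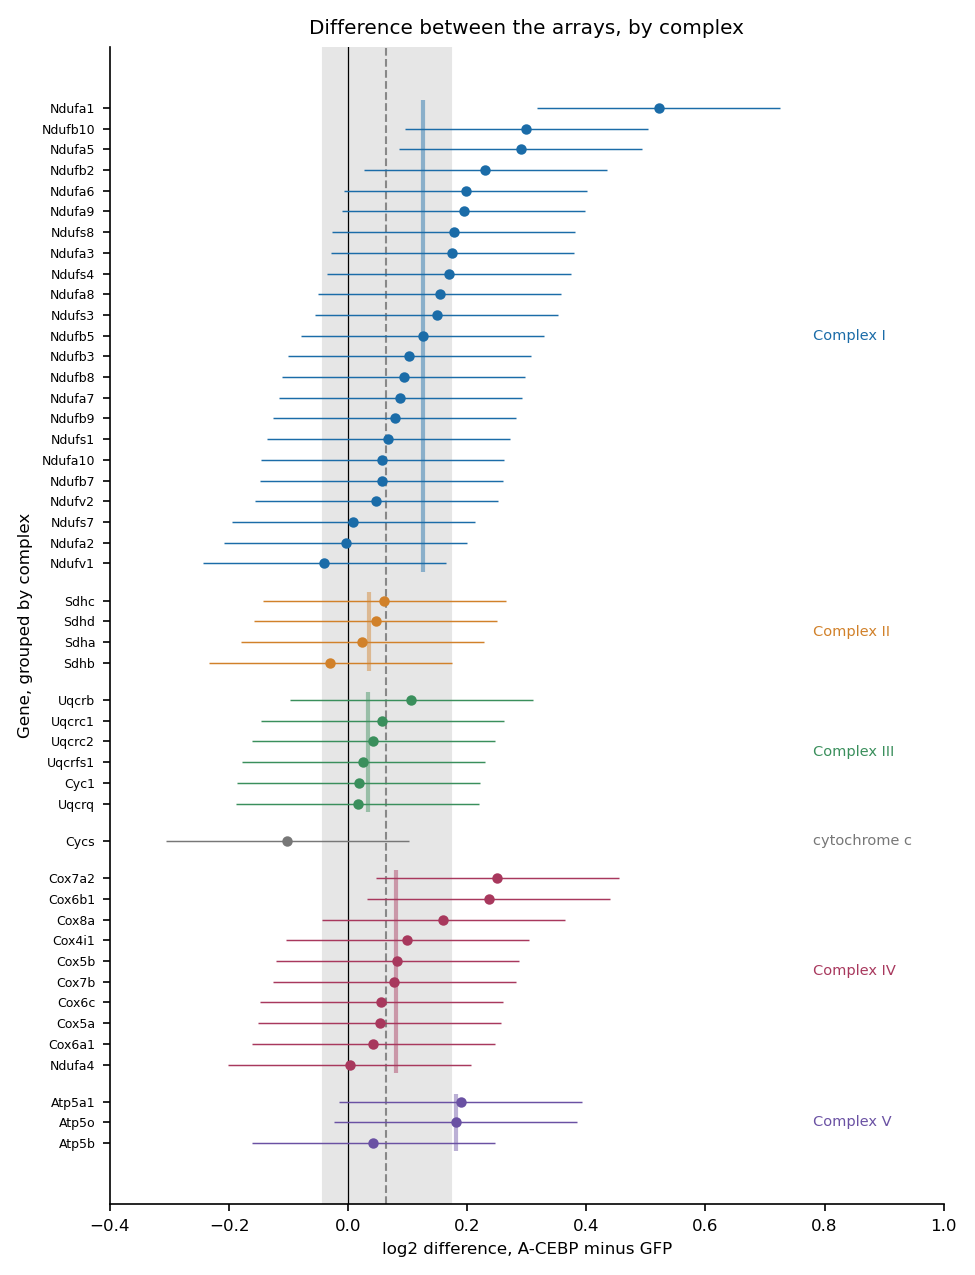
Difference between the arrays for each of the 47 genes (log2, A-CEBP minus GFP; points), with the scanner's error of 0.20 as horizontal bars and the median of each complex as a coloured vertical line. The grey band spans the quartiles of the 3351 genes of like signal, from -0.04 to 0.17, and the dashed line marks their median of 0.06; Ndufa1 at 0.52 lies farthest from the band, and all points of complexes II and III lie within it.

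Complex II, succinate dehydrogenase, is also an enzyme of the TCA cycle and was close to 0 in all its subunits. The median of its 4 genes was 0.04, and 0 of 4 lay above the median of genes of like signal. Its sign was not stable, since the median was negative in 3 of 12 other ways of processing and lowest with cyclic loess at -0.02. Sdha, the flavoprotein, read 22095 units with GFP and 23313 with A-CEBP, a difference of 0.02. Sdhb, the iron-sulphur subunit, read 43752 and 44499 units, a difference of -0.03, and its dimmer probe gave 0.04. The membrane anchors Sdhc and Sdhd differed by 0.06 and 0.05, and the other probe of Sdhc by 0.09. All 4 differences were smaller than 2 replicate-spot SDs.

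Complex III, the cytochrome bc1 complex, was as close to 0. The median of its 6 genes was 0.03, all 6 were above 0, and 1 of 6 lay above the median of genes of like signal. Its median was negative in 3 of 12 other ways of processing, with a lowest value of -0.02. The core protein genes Uqcrc1 and Uqcrc2 differed by 0.06 and 0.04. Uqcrfs1, the Rieske iron-sulphur protein, read 20127 and 21270 units, a difference of 0.03, and Cyc1, cytochrome c1, read 18422 and 19358, a difference of 0.02. The small subunit genes Uqcrb and Uqcrq differed by 0.11 and 0.02. Uqcrb had 3 probes, from -0.02 to 0.11, and Uqcrq had another probe at -0.02, so the sign of both depended on the probe. Cycs, cytochrome c itself, was the lowest of the 47 genes. It read 37657 units with GFP and 36412 with A-CEBP, a difference of -0.10, with a further bright probe at -0.04 and a dim probe, at 25.8 and 36.4 units and a difference of 0.44, that was well above background on the A-CEBP array only. It became 0.09 with spike-in centring, and its size is below the scanner error.

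Complex IV, cytochrome c oxidase, lay between complexes I and III. All 10 of its genes were above 0, with a median of 0.08, which turned to -0.02 with quantile normalization, and 6 of 10 lay above the median of genes of like signal. Cox7a2, a small subunit, read 27959 units with GFP and 34535 with A-CEBP, a difference of 0.25. Cox6b1, on the side that binds cytochrome c, read 5769 and 7056 units, a difference of 0.24. Cox8a followed at 0.16, with 160516 and 186132 units, and its other probe gave 0.06. These were the genes of the complex beyond 2 replicate-spot SDs. Cox4i1 differed by 0.10, Cox5b and Cox7b by 0.08, Cox6c by 0.06, Cox5a by 0.05 and Cox6a1 by 0.04. Ndufa4, first described with complex I and later assigned to complex IV, differed by 0.0028, from 18416 to 19156 units before scaling.

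The members of complex V were 3 genes of the F1 part and its stalk. Their median was 0.18, the highest of the complexes, and it was positive in all 12 other ways of processing, from 0.12 to 0.38. Atp5a1, the alpha subunit, read 29002 units with GFP and 34331 with A-CEBP, a difference of 0.19. Atp5o, which links the F1 part to the peripheral stalk, read 18617 and 21902 units, a difference of 0.18. Atp5b, the catalytic beta subunit, read 127592 and 136400 units and differed by 0.04. All 3 were smaller than the scanner error. With 3 genes, the median is the value of 1 of them, Atp5o.

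The fixed list of other nuclear subunits, outside the 47 members, gave values of the same size. All 31 were measured, with a median of 0.09; 29 were above 0, none was 2-fold higher or lower, and 2 were higher by 0.32 or more. The highest were Ndufv3, an accessory subunit of complex I, at 0.55, Uqcrh, the hinge protein of complex III, at 0.33, and Ndufb11 at 0.31. Atp5g3, a subunit of the rotor ring, followed at 0.23. Ndufv3 read 49860 units with GFP and 76049 with A-CEBP, and its dimmer probe differed by 0.39. Split by complex, the 13 further genes of complex I had a median of 0.10 and the 13 of complex V 0.08. The 3 further genes of complex III, at 0.04, 0.13 and 0.33, spanned a wider range than its members, and 2 of them lay above all 6 members. The 2 further genes of complex IV, Cox7c and Cox7a2l, were at -0.02 and 0.01.

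Some of these subunits have a second gene, used in particular tissues or at low oxygen, and those genes differed more widely. Of 9 on the fixed list, 8 were measured on both arrays, 2 were 2-fold higher and none was 2-fold lower. Ndufa4l2, a relative of Ndufa4 known as a target of the hypoxia-inducible factor HIF-1, read 2593 units with GFP and 12776 with A-CEBP. Its difference of 2.25, or 4.75-fold, was 2.24 above that of Ndufa4, with an error of 0.29 for the gap from the scanner's model. Cox8b, the muscle-type isoform of Cox8a, read 425 and 1073 units, a difference of 1.28, or 2.43-fold, and 1.12 above Cox8a. Cox6a2, the muscle-type isoform of Cox6a1, went the other way, with 1539 and 1077 units, a difference of -0.57. Ndufa4l2 and Cox8b stayed 2-fold higher, and Cox6a2 stayed below 0, in all 12 other ways of processing.

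The other isoforms lay closer to their partner genes than these. Cox7a1 differed by 0.24 where Cox7a2 differed by 0.25, and Cox4i2, a subunit isoform known to respond to low oxygen, by 0.12 where Cox4i1 differed by 0.10. Cox7b2 was at -0.04, or 0.11 below Cox7b, and Cox6b2 at -0.0081, or 0.24 below Cox6b1, gaps smaller than their scanner errors of 0.32 and 0.30. Cyct, the testis form of cytochrome c, differed by 0.33, from 47.2 to 61.6 units. It lay 0.43 above Cycs, more than the scanner error of that gap, 0.37. Cox8c was not well above background on either array. Among muscle markers, 3 of 7 were measured on both arrays: Acta1 and Tnnt3 differed by 0.79 and 0.95 and Des by -0.06, while the defining genes Myod1, Myog, Myh1 and Ckm were not well above background on either array. Over 1 probe for each of the 7 genes, the summed signal was 518 units with GFP and 827 with A-CEBP. The part of muscle-type expression in the values of Cox8b and Cox6a2 was not tested.

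**Figure D3:**
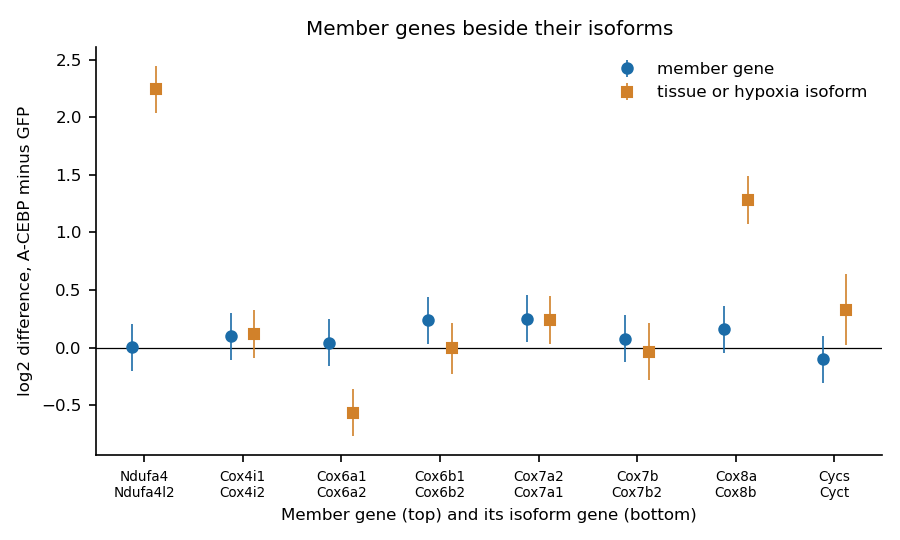
Difference between the arrays (log2, A-CEBP minus GFP) for 8 member genes (blue circles) beside their tissue or hypoxia isoform (orange squares), with the scanner's error as vertical bars. The members lie between -0.10 and 0.25, whereas Ndufa4l2 reaches 2.25, Cox8b 1.28 and Cox6a2 -0.57.

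Genes that build or regulate the chain also had small median differences, but they spread more widely than its subunits. The SD was 0.15 for assembly factors and 0.15 for regulators, against 0.11 for the 47 members. The measured regulators and many assembly factors gave dimmer signals than the dimmest member. Over all genes the SD was 0.42, and over genes in the members' range of signal it was 0.28. A wider spread and a dimmer signal were therefore not separated here. Of 38 assembly factors 35 were measured, with a median of -0.02 and none 2-fold apart. Among these, 15 were above 0 and 20 below, where 43 members were above 0. One was past -0.32, Sco2, which helps deliver copper to complex IV, at -0.33. Ndufaf4 and Ndufaf5, assembly factors of complex I, were at -0.32, just inside the rule, and at -0.26, and Tmem126b, another of complex I, at 0.27. The sign of the assembly factor median was not stable, as it was negative in 9 of 12 other ways of processing and 0.17 with spike-in centring. Of 14 regulators of mitochondrial biogenesis 13 were measured, with a median of 0.06, which was negative in 2 of the 12, and none was past 0.32 in either direction. Gabpb1 and Gabpa, the subunits of the ETS-type factor GABP, differed by 0.29 and 0.21, and the coactivator genes Pprc1 and Ppargc1a by -0.25 and -0.19. Nrf1 differed by 0.06 and Tfam, which packages mitochondrial DNA, by 0.05. Ppargc1b was not well above background on either array.

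The pathways that feed the chain did not share 1 pattern. The 18 genes of the TCA cycle and pyruvate dehydrogenase had a median of 0.06 and none was past 0.32 in either direction. Dlst was the lowest at -0.16, and Idh3a, Suclg1 and Ogdh were the highest, at 0.15, 0.15 and 0.12. Of 19 genes of glycolysis, 16 were past 0.32 and none past -0.32, with a median of 0.54 that stayed between 0.45 and 0.74 in the 12 other ways of processing. The lactate exporter gene Slc16a3 and the aldolase gene Aldoc were 2.38-fold and 2.06-fold higher, and Pfkp and Tpi1 differed by 0.89 and 0.88. Among 9 measured HIF-linked genes that alter mitochondria, 5 were past 0.32 and none past -0.32, and the median was 0.71, against 0.586 with the mean over probes and 0.361 with the dimmest probe. Bnip3, a mitophagy receptor, read 38280 and 100195 units, Higd1a, a small protein of the inner membrane that binds complex IV, 76873 and 180077, and Pdk1, which inhibits pyruvate dehydrogenase, 2203 and 4983. These differences were 1.33, 1.17 and 1.12, and Pdk3 followed at 0.75. The list of 18 cytosolic ribosomal protein genes, bright genes of another system, had a median of 0.06 and a range from -0.10 to 0.15, and the median was negative in 2 of the 12. Of the 8 chondrocyte markers, 6 were past 0.32 and none past -0.32, with a median of 0.62 and summed signals of 295401 units with GFP and 412112 with A-CEBP, of which Col2a1 gave 260748 and 364462. Their part in the differences of these pathways was not tested.

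**Figure D4:**
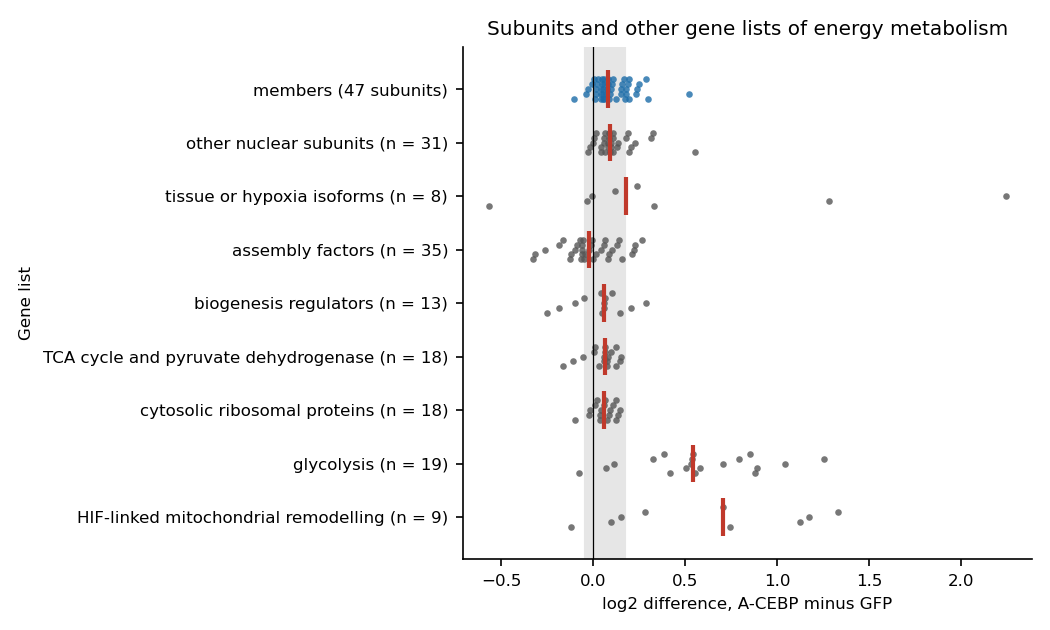
Difference between the arrays (log2, A-CEBP minus GFP) of each measured gene (points) in the 47 members and 8 further lists, with list medians as red lines and the quartiles of genes of like signal, -0.04 to 0.17, as the grey band. The medians of subunits, assembly factors, regulators, TCA cycle and ribosomal proteins lie between -0.02 and 0.09, and those of glycolysis and HIF-linked genes at 0.54 and 0.71.

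The level of the medians depended on the scaling. Spike-in centring raised the median of all genes from 0.05 to 0.24, and the members' median with it, from 0.08 to 0.28. The order of the complexes can be read only from the 7 settings that do more than add a constant to each array. Over these, relative to genes of like signal, the members lay between 0.0009 and 0.02 above and complex I between 0.04 and 0.06 above. Complex V lay above complex III in all 7, and its gap was 0.12 to 0.18 in the 6 that changed it. Complex IV lay above complex III in 6 of 7, the exception being quantile normalization, with a gap of -0.02. This order holds for the members only, as the further nuclear subunits did not keep it in the main setting. Their medians were 0.13 for complex III (3 genes) and 0.10 for complex I (13 genes). For complexes V and IV they were 0.08 (13 genes) and -0.0048 (2 genes).

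**Figure D5:**
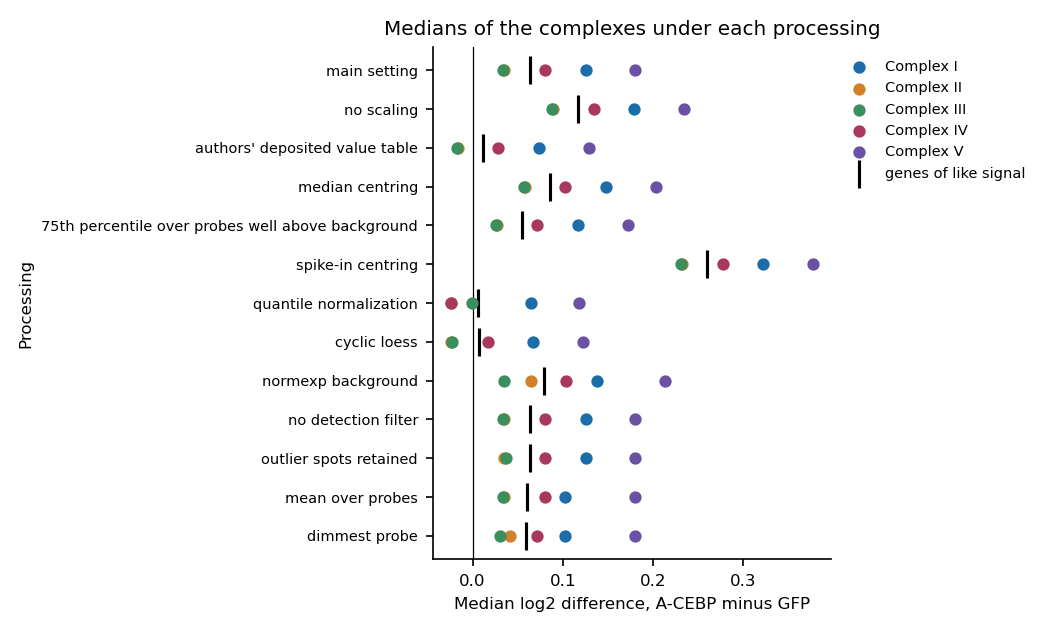
Median difference (log2, A-CEBP minus GFP) of each complex (coloured points) and of the 3351 genes of like signal (black bars) in the main setting and 12 other ways of processing. Complex I stays to the right of the black bar in every row, by 0.04 to 0.06; 5 of the settings move all points of the main setting together, furthest right with spike-in centring.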

How the data were processed

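RNA from 1 GFP and 1 A-CEBP sample was measured on 1-colour Agilent mouse arrays. The deposited scanner files hold processed intensity made within each array by Agilent Feature Extraction 10.10.1.1, per the file headers and the submitters' processing notes, whose background and detrending settings are not given there. The authors' deposited value table holds the same intensity times a constant per array, 1.24 for GFP and 1.15 for A-CEBP, whose origin those sources do not state. A probe's position in its transcript was not determined.

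Control spots and 293 outlier spots were left out, log2 of the processed signal was taken, the 75th percentile of each array subtracted, and spots of a probe averaged. Probes were named by accession through RefSeq (GRCm38.p6): 27229 of 55671 matched 1 gene. A gene took its brightest probe with over 50% of spots well above background on both arrays. Size rules were 2-fold and a log2 difference of 0.32. The rule for named genes took each member past 0.32 in either direction, the 2 highest and 2 lowest of each complex, members not well above background or with probes of opposite sign, the 6 core subunits, complexes II, III and V, all measured isoforms, and up to 4 genes of each further list with the largest differences. The other members, Nrf1, Tfam, Cox7c and Cox7a2l were named after their values were seen. Members and lists were chosen with earlier results of these data known. The procedure was tested on simulated data. Alternatives used limma 3.58.1 and R 4.3.3. For normexp (offset 50) the median signal was used, and the mean signal was not analysed. A single array per group limits the precision.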

Additional observations from a re-analysis of the deposited data

How the results depend on the processing

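No paired analysis was possible because each group held 1 sample, and no sample could be left out. A median counted as moved when it changed by 0.12 or more, the SD over replicate spots of all probes. Over 12 other ways of processing, no member was 2-fold apart and none was past -0.32. Spike-in centring moved every median upward: to 0.28 for all members, 0.32, 0.23, 0.23, 0.28 and 0.38 for complexes I to V in order, 0.29 for the other subunits, 0.38 for the isoforms, 0.17 for assembly factors, 0.25 for regulators, 0.26 for the TCA cycle, 0.74 for glycolysis, 0.90 for HIF-linked genes and 0.26 for ribosomal proteins. The cause was not tested. Members higher by 0.32 or more then numbered 17, against 3 without scaling, 2 with normexp background, and 16 and 0 when the rule was set at 1.1-fold and 1.5-fold; 16 were also higher when 1.1-fold replaced the 2-fold rule. Members above 0 numbered 25 with quantile normalization. Glycolysis genes 2-fold higher numbered 5 with spike-in centring and 1 with the authors' deposited values, with quantile normalization and with cyclic loess. The isoform median was 0.0486 with normexp. The HIF-linked median was 0.586 with the mean over probes and 0.36 with the dimmest probe. Without the detection filter 1 regulator, Ppargc1b, was 2-fold higher, from signals not well above background. Counting Ndufa4 with complex I, or Cycs with complex III, moved no median by 0.12. With 1 gene moved, a median goes at most to a neighbouring value, and these lay closer than 0.12. The outcome was therefore fixed in advance.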
